A study of Mus musculus with 9 samples.

Results

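The genes described are 10 members of bile acid synthesis and of its control by the bile acid receptor FXR and the growth factor receptor FGFR4, chosen by gene name from the 54532 genes in the deposited liver RNA-seq table. They are the 4 cytochrome P450 enzymes Cyp7a1, Cyp8b1, Cyp27a1 and Cyp7b1, the conjugation enzymes Slc27a5 and Baat, the nuclear receptors Nr1h4 (FXR) and Nr0b2 (SHP), and the cell surface pair Fgfr4 and Klb (beta-Klotho). Expression was measured by bulk RNA-seq in 9 livers of male C57BL/6 mice aged 5 to 7 weeks, in 3 groups of 3. The methods state an overnight fast for all animals before APAP was given. The NC group was labelled as control, and the sources used here do not give what it was injected with or the hour of harvest. The APAP group received 500 mg/kg acetaminophen (APAP) intraperitoneally, an overdose that injures hepatocytes around the central vein, and the livers were taken after 6 h. The AMSC group was treated in the same way and received 200000 adipose-derived mesenchymal stem cells (AMSCs), grown from inguinal fat of C57BL/6 mice, through the tail vein directly after APAP. AMSC libraries are numbered 2, 3 and 4 in the labels, and NC and APAP libraries 1, 2 and 3. The title of NC replicate 3 gives it another number, 1.

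Bile acids are made from cholesterol in hepatocytes. The classic route starts with Cyp7a1, the rate-limiting 7-alpha-hydroxylase, and the alternative route with Cyp27a1, a mitochondrial sterol 27-hydroxylase, followed by the oxysterol 7-alpha-hydroxylase Cyp7b1, whereas Cyp8b1 adds the 12-alpha-hydroxyl group that directs synthesis toward cholic acid. Bile acids that bind FXR raise SHP in the liver and the hormone FGF15 in the ileum, and SHP and FGF15, the latter acting through FGFR4 and beta-Klotho on hepatocytes, lower Cyp7a1 and Cyp8b1.

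Expression is given in FPKM, which scales the fragments of a gene by its length and by a library-wide factor and so allows levels of different genes to be compared per length. A log2 fold change is the difference between group means of log2(FPKM + 1), an adjusted p is the limma p after Benjamini-Hochberg adjustment over the 9699 genes tested, and a gene with an adjusted p up to 0.05 whose log2 fold change was 1 or more, upward or downward, was counted as a DEG. All 10 genes passed the filter of a mean of at least 1 FPKM. The libraries held 13418921 to 16210930 reads on genes, and 1 read on a gene of 1 kilobase was worth 0.0578 to 0.0807 FPKM. Libraries of the same group correlated at r = 0.970 to 0.991 across genes on the log2 scale, where genes are not independent replicates. NC replicate 3 carries an earlier date than the other 8 libraries in its label, with no statement of what the date marks, and as the only such library it gives no within-date comparison. It had the highest value of the NC group for 8 of the 10 genes and the lowest for the other 2, Cyp7a1 and Klb. The study's methods call the libraries of a group biological replicates.

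Liver identity was checked with 6 hepatocyte markers, whose summed level was between 41509 and 45732 FPKM in NC livers, between 60416 and 69862 FPKM in APAP livers and between 52944 and 55956 FPKM in AMSC livers. Most of this hepatocyte sum came from Alb, with means of 28741, 44835 and 33180 FPKM in the NC, APAP and AMSC groups. In the APAP group against the NC group, 3 of the 6 were higher, and 3, Cps1 among them, did not pass the test. The share of all genes tested that were higher was 12.8%. Markers of pericentral hepatocytes, which lie around the central vein, moved with the groups. The sum of 8 such genes was between 4767 and 5889 FPKM in NC livers, between 562.4 and 2525 FPKM in APAP livers and between 4450 and 4768 FPKM in AMSC livers. Of the 6 pericentral markers tested, 5 were lower in the APAP than in the NC group and 4 were higher in the AMSC than in the APAP group, but 4 of the 6 (Glul, Cyp1a2, Rgn and Slc1a2) were lower in AMSC than in NC livers, where the median log2 fold change of the 6 was -0.81. The matching shares of all genes tested were 13.1% lower, 1.64% higher and 11.9% lower. Most of the pericentral sum came from Cyp2e1, with means of 3408 FPKM in the NC and 3619 FPKM in the AMSC group, whereas Glul had means of 253 and 137 FPKM and Cyp1a2 of 755 and 247 FPKM. The 7 periportal markers summed to 2435 to 3020 FPKM, 4086 to 4769 FPKM and 3501 to 3775 FPKM in the NC, APAP and AMSC groups. For APAP against NC, 5 of the 7 were higher and 0 lower, beside 12.8% and 13.1% of all genes tested. For AMSC against APAP, 0 were higher and 2 lower, beside 1.64% and 2.14%. For AMSC against NC, 3 of the 7 were higher and 1 lower, beside 14.1% and 11.9% of all genes tested. The 5 erythroid markers summed to 135 to 254 FPKM, 306 to 1406 FPKM and 183 to 312 FPKM, and the 6 neutrophil markers to 0.173 to 1.68 FPKM, 7.31 to 33.9 FPKM and 4.14 to 5.83 FPKM in the same order. Summed macrophage markers were 50.5 to 103 FPKM, 70.5 to 185 FPKM and 42.1 to 68.4 FPKM. Cholangiocyte markers summed to 18.7 to 39.6 FPKM, 57.4 to 97.4 FPKM and 27.3 to 50.5 FPKM, endothelial markers to 18.4 to 41.6 FPKM, 21.2 to 58.1 FPKM and 19.3 to 21.0 FPKM, and stromal markers to 18.3 to 33.6 FPKM, 23.7 to 54.6 FPKM and 23.0 to 40.1 FPKM. Of the 4 cholangiocyte markers tested, 2 (Sox9 and Spp1) were higher in the APAP than in the NC group, and Krt19 and Epcam did not pass. For the same comparison, 3 of 3 neutrophil, 4 of 5 erythroid, 0 of 6 macrophage, 1 of 6 endothelial and 0 of 5 stromal markers tested were higher. The share of all genes tested that were higher in this comparison was 12.8%, as above. The part of these differences in the results on the bile acid genes was not tested, and in bulk tissue fewer cells of a type and less RNA per cell cannot be told apart.

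Between the NC and the APAP group, the expression of Cyp7a1, Nr1h4 and Baat fell and that of Slc27a5 rose. Cyp7a1 and Nr1h4 were DEGs. Among all genes tested, 7.9% were DEGs, 12.8% passed the adjusted p as higher and 13.1% as lower, against 2 of 10, 1 of 10 and 3 of 10 of the bile acid genes. In the AMSC group compared with the APAP group, Nr0b2 fell and Cyp27a1 rose, and Nr0b2 was a DEG, with 1.96% of all genes DEGs, 1.64% higher and 2.14% lower by the adjusted p. In the AMSC group compared with the NC group, Cyp7a1, Cyp7b1 and Nr0b2 were lower and Cyp27a1 was higher, and Cyp7a1 and Cyp7b1 were DEGs, with 6.01% of all genes DEGs, 14.1% higher and 11.9% lower by the adjusted p. The median log2 fold change of the 10 genes was 0.01, -0.10 and -0.21 in the 3 comparisons, beside -0.00, 0.01 and 0.02 over all genes tested. Each pair of comparisons shares a group of libraries, so their fold changes are not independent.

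**Figure D1:**
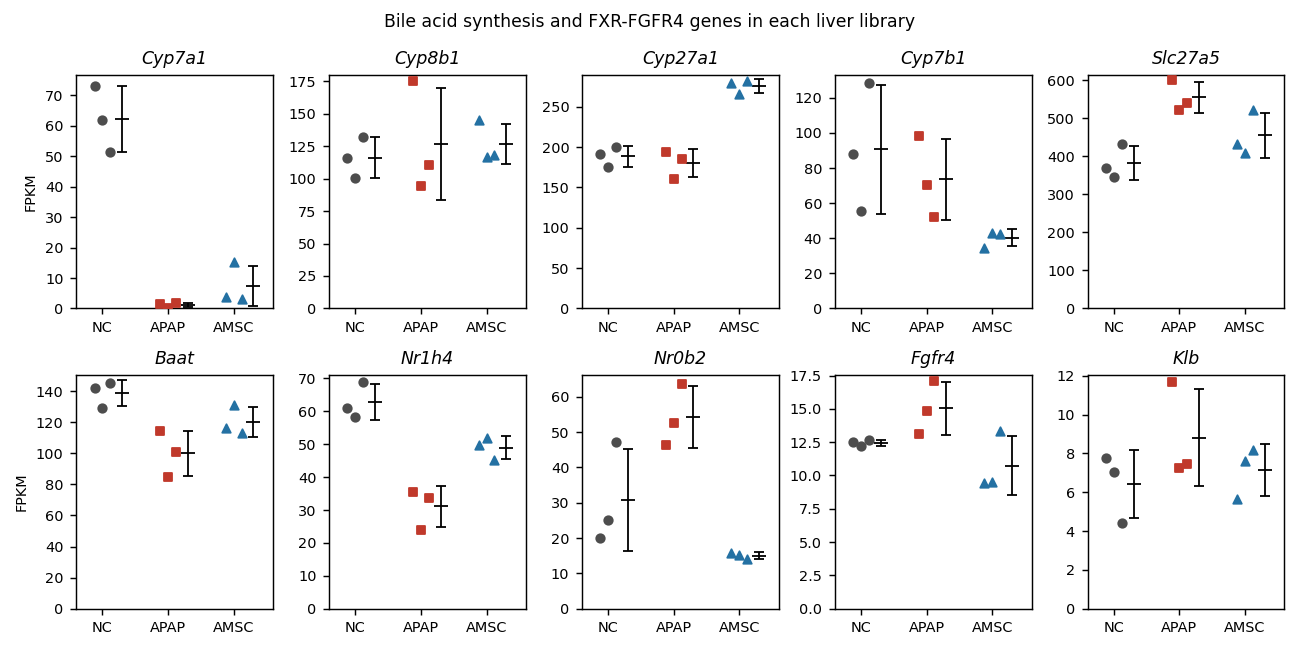
FPKM of the 10 genes in each library (points, in order of replicate number) with the mean and SD of each group of 3 (bars), one panel per gene with its own axis from 0. Cyp7a1 lies near 0 in the APAP libraries, and the 3 AMSC libraries lie below both other groups for Nr0b2 and Cyp7b1 and above both for Cyp27a1.

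The scale of the values bears on the direction of calls. The FPKM summed to 366767 to 401861 in the NC libraries, 458808 to 495400 in the APAP libraries and 441409 to 468643 in the AMSC libraries. Rescaling each library to the same sum (TPM) shifted the median log2 fold change of all genes tested to -0.29 for APAP against NC, 0.10 for AMSC against APAP and -0.18 for AMSC against NC. The share of higher genes among all those past the adjusted p then went from 49.4% to 20.2%, from 43.3% to 58.7% and from 54.2% to 28.1%. Among the bile acid genes, 0 were higher and 3 lower in the APAP than in the NC group after rescaling, compared with 1 and 3 before, and 1 was higher and 5 lower in the AMSC than in the NC group, compared with 1 and 3 before.

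Cyp7a1 (ENSMUSG00000028240, GRCm38 chr4:6265612-6275633, minus strand) showed the largest difference of the 10 genes between the APAP and NC groups. Its level was 73.2, 61.9 and 51.5 FPKM in the NC group, 1.34, 0.251 and 1.80 FPKM in the APAP group, and 3.83, 15.1 and 3.25 FPKM in the AMSC group. The 3 groups did not overlap, every APAP library being the lowest and every NC library the highest. The APAP values rested on 75, 13 and 101 reads, and the NC values on 3697 to 5098 reads. Mean expression was 62.2 ± 10.9 FPKM in the NC group (SD, n = 3), 1.13 ± 0.795 FPKM in the APAP group and 7.40 ± 6.70 FPKM in the AMSC group. Cyp7a1 fell in the APAP group, where its log2 fold change against the NC group was -4.96 ± 0.29 (SE), with an adjusted p of 6.47e-05. Mean FPKM was 55.0-fold lower, while the log2 fold change amounts to 31.0-fold. The latter has 1 FPKM added, which is near the size of the APAP values and narrows Cyp7a1 fold changes against that group. The hour of harvest is not given, and the part of time of day or food intake in this difference was not tested. APAP replicate 2, which had the lowest Cyp7a1 value, also had the lowest sum of pericentral markers, and leaving it out gave a log2 fold change of -4.61.

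The AMSC libraries lay above the APAP libraries for Cyp7a1, but the difference did not pass the test. The log2 fold change was 1.78 with a 95% interval of 0.58 to 2.98 and an adjusted p of 0.111. AMSC replicate 3 stood above the other 2 AMSC libraries, and without it the log2 fold change was 1.17 with an adjusted p of 0.183. With all 9 libraries in one fit the adjusted p was 0.0527, and with voom it was 0.106. Compared with the NC group, Cyp7a1 was lower in the AMSC group, with a log2 fold change of -3.18 (95% interval -4.22 to -2.14, adjusted p = 0.00196). Of the 6 pericentral markers tested, 4 were also lower in AMSC than in NC livers, beside 11.9% of all genes tested. The part of these markers in the Cyp7a1 result was not tested.

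**Figure D2:**
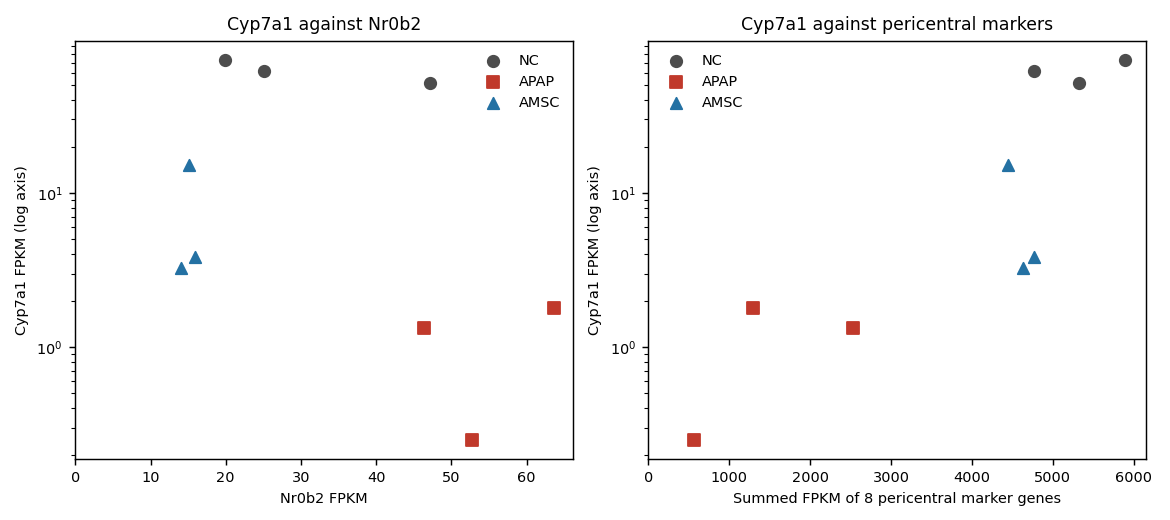
Cyp7a1 FPKM (log axis) in each of the 9 libraries against Nr0b2 FPKM (left) and against the summed FPKM of 8 pericentral marker genes (right). The AMSC libraries sit at Nr0b2 values of 14.1 to 15.9 FPKM, with Cyp7a1 between those of the APAP and NC libraries, and APAP replicate 2 has the lowest value on both axes of the right panel.

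Cyp8b1 (ENSMUSG00000050445, GRCm38 chr9:121914356-121916305, minus strand), the 12-alpha-hydroxylase, did not pass the test in any comparison. It was at 116, 100.2 and 132 FPKM in the NC group, 175, 94.1 and 110.1 FPKM in the APAP group, and 145, 117 and 118 FPKM in the AMSC group. The groups overlapped, and APAP replicate 1 and replicate 2 held the highest and the lowest value of all 9 libraries. The log2 fold change was 0.08 (95% interval -0.47 to 0.63, adjusted p = 0.826) for APAP against NC, 0.05 (-0.49 to 0.59, adjusted p = 0.940) for AMSC against APAP and 0.13 (-0.20 to 0.45, adjusted p = 0.552) for AMSC against NC. The sign turned with another scaling or without single libraries, and the intervals leave room for a change of up to 0.63 on the log2 scale. For APAP against NC, the interval of Cyp8b1 lay above that of Cyp7a1, which was -5.63 to -4.28.

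Promoter sequences from RefSeq (GRCm38.p6) matched 6 of the 10 genes: Cyp8b1, Cyp27a1, Nr0b2, Nr1h4, Fgfr4 and Klb. The 250 bases before the start of Cyp8b1, at chr9:121916306-121916555 on the minus strand, and of Nr0b2, at chr4:133553126-133553375 on the plus strand, are shown because Nr0b2, the repressor that acts on Cyp8b1, was the DEG between the AMSC and APAP groups while Cyp8b1 was called in no comparison. Capitals mark the matches to 4 nuclear receptor motifs searched on both strands, which were the half-site AGGTCA, the LRH-1 type CAAGGTCA (which contains AGGTCA), the FXR type inverted repeat core GGTCANTGA and the HNF4 type CAAAGTCCA.
Cyp8b1: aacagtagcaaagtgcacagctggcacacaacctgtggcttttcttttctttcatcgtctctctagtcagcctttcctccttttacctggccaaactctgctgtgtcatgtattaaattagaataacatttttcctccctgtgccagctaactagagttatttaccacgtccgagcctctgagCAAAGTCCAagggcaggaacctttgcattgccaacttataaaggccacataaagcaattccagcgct
Nr0b2: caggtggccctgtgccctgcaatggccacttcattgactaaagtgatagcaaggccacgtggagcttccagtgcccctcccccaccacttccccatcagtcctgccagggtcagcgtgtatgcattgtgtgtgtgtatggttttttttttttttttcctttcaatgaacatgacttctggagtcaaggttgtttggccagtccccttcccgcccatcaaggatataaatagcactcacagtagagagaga
In the Cyp8b1 promoter, CAAAGTCCA stood 67 to 59 bases before the start. In Nr0b2 no motif had an exact match in this window. Sites farther upstream, or differing from a motif by a base, were not searched. Over the 32851 promoters of the same length, 0.384% held CAAAGTCCA, 14% AGGTCA, 1.33% CAAGGTCA and 0.731% GGTCANTGA. Of the other 4 matched genes, only Nr1h4 had a match, 1 AGGTCA on the opposite strand 214 to 209 bases before the RefSeq start, which lies 26927 bases from the gene start in the deposited table.

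Cyp27a1 (ENSMUSG00000026170, GRCm38 chr1:74713574-74737892), which opens the alternative route, was highest in the AMSC group. Its level was 191, 175 and 199.9 FPKM in the NC group, 195, 161 and 185 FPKM in the APAP group, and 279, 266 and 281 FPKM in the AMSC group. Every AMSC library lay above every other library, while the NC and APAP libraries overlapped. Cyp27a1 rose in the AMSC group compared with the APAP group by 0.61 on the log2 scale (SE 0.13, adjusted p = 0.0448) and was 0.55 higher than in the NC group (adjusted p = 0.0071). The call against the APAP group was lost without APAP replicate 2 (adjusted p = 0.112), APAP replicate 3 (0.10) or AMSC replicate 2, 3 or 4 (0.133, 0.134 and 0.145), with log2 fold changes of 0.54 to 0.67 over all single libraries left out. Between the APAP and NC groups the log2 fold change was -0.07 (95% interval -0.37 to 0.23, adjusted p = 0.733).

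Cyp7b1 (ENSMUSG00000039519, GRCm38 chr3:18071950-18243338), the oxysterol 7-alpha-hydroxylase, was lower in AMSC than in NC livers. It was at 88.1, 55.2 and 129 FPKM in the NC group, 98.1, 70.4 and 52.0 FPKM in the APAP group, and 34.6, 43.2 and 42.7 FPKM in the AMSC group. All AMSC libraries lay below all others, and the NC and APAP libraries overlapped and spread widely. Against the NC group the log2 fold change was -1.08 (95% interval -1.70 to -0.46, adjusted p = 0.0217). This call was lost without NC replicate 1 (adjusted p = 0.0638), AMSC replicate 2 (0.0718) or AMSC replicate 4 (0.0568), and without NC replicate 3 the log2 fold change was -0.79, under the minimum for a DEG. Against the APAP group it was -0.82 (95% interval -1.34 to -0.29), which did not pass the test (adjusted p = 0.0995). For APAP against NC it was -0.26 (95% interval -1.03 to 0.50, adjusted p = 0.596). The Cyp7b1 gene model overlaps a small nuclear RNA gene on the same strand that was at most 0.353 FPKM in any library.

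The first enzyme of the classic route was set against that of oxysterol 7-alpha-hydroxylation within each library. The log2 ratio of Cyp7a1 to Cyp7b1, with 1 FPKM added to both, was -0.26, 0.16 and -1.30 in the NC group, -5.40, -5.84 and -4.24 in the APAP group, and -2.88, -1.46 and -3.36 in the AMSC group. The groups did not overlap, and the AMSC ratios lay between those of the other groups. The mean ratio was -0.47 ± 0.75 in the NC group (SD, n = 3), -5.16 ± 0.82 in the APAP group and -2.57 ± 0.99 in the AMSC group. The differences of -4.69, 2.59 and -2.10 for APAP against NC, AMSC against APAP and AMSC against NC each gave p = 0.1 in a two-sided exact permutation test, which is the smallest p that 3 against 3 libraries allow, so the design could not reach 0.05. Both genes enter the ratio. For AMSC against APAP the log2 fold changes were 1.78 for Cyp7a1 and -0.82 for Cyp7b1, and neither passed the limma test. For AMSC against NC they were -3.18 and -1.08, both lower.

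Slc27a5 (ENSMUSG00000030382), the bile acid CoA ligase that prepares bile acids for conjugation, had the highest level of the 10 genes in each group. It was at 369, 345 and 433 FPKM in the NC group, 602, 523 and 541 FPKM in the APAP group, and 433, 409.9 and 522 FPKM in the AMSC group. The APAP libraries lay above all others, and the NC and AMSC libraries overlapped. Slc27a5 rose in the APAP group against the NC group by 0.54 on the log2 scale (SE 0.14, adjusted p = 0.0252). The call was lost with quantile normalization (0.19, adjusted p = 0.304) and with TPM scaling (0.23, adjusted p = 0.210), and without NC replicate 1 (adjusted p = 0.103), NC replicate 2 (0.10) or APAP replicate 2 (0.0595). The log2 fold change was -0.29 (95% interval -0.63 to 0.04, adjusted p = 0.304) for AMSC against APAP and 0.25 (-0.07 to 0.57, adjusted p = 0.229) for AMSC against NC.

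Baat (ENSMUSG00000039653), which joins the activated bile acid to taurine or glycine, went the other way between the APAP and NC groups. Its level was 142, 129 and 145 FPKM in the NC group, 114, 84.9 and 101 FPKM in the APAP group, and 117, 131 and 113 FPKM in the AMSC group. All APAP libraries lay below all NC libraries, and the AMSC libraries overlapped both groups. Baat fell in the APAP group, at -0.48 ± 0.14 (SE) on the log2 scale (adjusted p = 0.0449). The call was lost without NC replicate 1 (adjusted p = 0.147), NC replicate 2 (0.0916), NC replicate 3 (0.109), APAP replicate 2 (0.138) or APAP replicate 3 (0.0799), whereas with TPM scaling it was -0.79 (adjusted p = 0.00615). The log2 fold change was 0.27 (95% interval -0.07 to 0.61, adjusted p = 0.348) for AMSC against APAP. For AMSC against NC it was -0.21 (-0.46 to 0.04, adjusted p = 0.201), and it passed the test with quantile normalization (-0.41, adjusted p = 0.0345) and TPM scaling (-0.42, adjusted p = 0.0204).

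Nr1h4 (ENSMUSG00000047638, GRCm38 chr10:89454234-89533585, minus strand) encodes FXR, the receptor that senses bile acids. It was at 60.9, 58.4 and 68.8 FPKM in the NC group, 35.6, 24.0 and 33.7 FPKM in the APAP group, and 49.7, 52.0 and 45.2 FPKM in the AMSC group. The 3 groups did not overlap, with the AMSC libraries between the others. Nr1h4 fell in the APAP group against the NC group at -1.005 ± 0.17 (SE) on the log2 scale (adjusted p = 0.00535), just past the minimum for a DEG, and without APAP replicate 2 or NC replicate 3 it was -0.83 and -0.94. For AMSC against APAP the log2 fold change was 0.66 (95% interval 0.27 to 1.05), which did not pass the test (adjusted p = 0.0799) but did with all 9 libraries in one fit (0.0350). For AMSC against NC it was -0.35 (-0.60 to -0.10, adjusted p = 0.0504), and it passed with quantile normalization (-0.46, adjusted p = 0.0170), TPM scaling (-0.56, 0.00614), voom (0.0467), a pseudocount of 0.1 (0.0494) and a mean of at least 5 FPKM (0.0478). It did not pass in any fit that left out a single library (adjusted p from 0.0548 to 0.154).

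Nr0b2 (ENSMUSG00000037583, GRCm38 chr4:133553376-133556536, plus strand) encodes SHP, the receptor without a DNA-binding domain that FXR induces and that represses Cyp7a1 and Cyp8b1. Its level was 19.96, 25.1 and 47.2 FPKM in the NC group, 46.4, 52.7 and 63.7 FPKM in the APAP group, and 15.9, 15.2 and 14.1 FPKM in the AMSC group. The AMSC libraries lay below all others within a narrow range, and NC replicate 3 lay among the APAP libraries. The mean was 30.7 ± 14.5 FPKM in the NC group (SD, n = 3), 54.2 ± 8.77 FPKM in the APAP group and 15.1 ± 0.904 FPKM in the AMSC group.

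Nr0b2 fell in the AMSC group compared with the APAP group, with a log2 fold change of -1.77 (95% interval -2.11 to -1.43, adjusted p = 0.00213), and the mean FPKM was 3.60-fold lower. It remained a DEG without each single library, with adjusted p from 0.00181 to 0.0161. Compared with the NC group, Nr0b2 was also lower in the AMSC group, with a log2 fold change of -0.89 (95% interval -1.51 to -0.27, adjusted p = 0.0434). That call was lost without NC replicate 2 (adjusted p = 0.0700), AMSC replicate 2 (0.0904), AMSC replicate 3 (0.0839) or AMSC replicate 4 (0.122), and without NC replicate 3 the log2 fold change was -0.54. Between the APAP and NC groups, the log2 fold change was 0.88 (95% interval 0.20 to 1.57) and did not pass the test (adjusted p = 0.063). Nor did it pass without the filter, with quantile normalization or TPM scaling, or without NC replicate 1, NC replicate 2 or APAP replicate 2. Leaving out each library gave log2 fold changes of 0.63 to 1.23, with adjusted p from 0.0081 to 0.186. Nr0b2 passed when libraries with the same replicate number were joined (replicate block, adjusted p = 0.0184), although the title of NC replicate 3 gives it another number. It also passed with all 9 libraries in one fit (0.0293), with voom on the recovered reads (0.0483) and, with a log2 fold change of 1.23, without NC replicate 3 (0.0081).

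**Figure D3:**
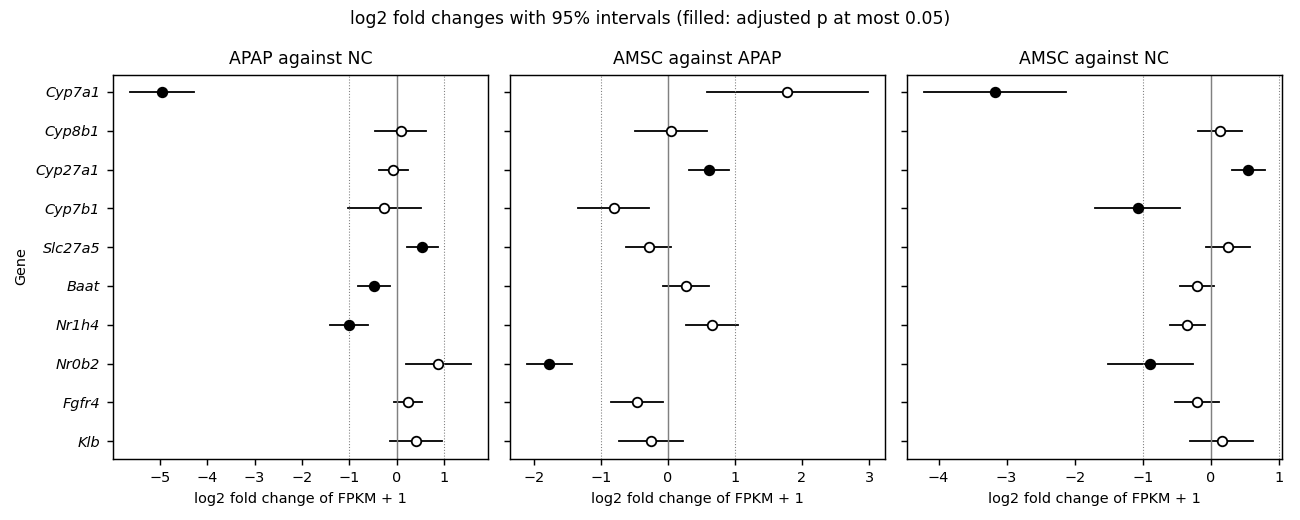
log2 fold changes of FPKM + 1 for the 10 genes in the 3 comparisons, with 95% intervals (lines), filled where the adjusted p was at most 0.05, and dotted lines at a change of 1 in either direction. Cyp7a1 has the lowest value against NC in both left and right panels, and Nr0b2 is the lowest in the AMSC against APAP panel at -1.77.

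Fgfr4 (ENSMUSG00000005320) and Klb (ENSMUSG00000029195), the receptor and co-receptor for FGF15 on hepatocytes, did not pass the test in any comparison. Fgfr4 was at 12.5, 12.2 and 12.6 FPKM in the NC group, 13.1, 14.9 and 17.1 FPKM in the APAP group, and 9.42, 9.49 and 13.3 FPKM in the AMSC group. The APAP libraries lay above the NC libraries. AMSC replicate 4 lay above the NC libraries and within the APAP range, and AMSC replicates 2 and 3 lay below all other libraries. The log2 fold change of Fgfr4 was 0.25 (95% interval -0.05 to 0.54, adjusted p = 0.190) for APAP against NC, -0.46 (-0.85 to -0.07, adjusted p = 0.178) for AMSC against APAP and -0.21 (-0.53 to 0.11, adjusted p = 0.300) for AMSC against NC. Klb was at 7.75, 7.04 and 4.42 FPKM in the NC group, 11.7, 7.27 and 7.47 FPKM in the APAP group, and 5.66, 7.61 and 8.19 FPKM in the AMSC group. These groups overlapped, with APAP replicate 1 the highest library. The log2 fold change of Klb was 0.41 (95% interval -0.13 to 0.95, adjusted p = 0.237) for APAP against NC, -0.25 (-0.73 to 0.22, adjusted p = 0.546) for AMSC against APAP and 0.16 (-0.31 to 0.62, adjusted p = 0.609) for AMSC against NC. Fgf15, their ligand, was listed at 0 in all 9 liver libraries.

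By level per length, the order of the genes shifted with the groups mainly through Cyp7a1. Slc27a5 and Cyp27a1 were the first and second in each group, with means of 382 and 189 FPKM in the NC group, 555 and 180.1 FPKM in the APAP group, and 455 and 275 FPKM in the AMSC group. In the NC group, Baat, Cyp8b1, Cyp7b1, Nr1h4 and Cyp7a1 followed, and each overlapped its neighbour in this order. Cyp7a1 ranked 7 of 10 in the NC group, 10 in the APAP group and 9 in the AMSC group, where it overlapped Fgfr4 and Klb. Nr0b2 ranked 8 in the NC group, 6 in the APAP group, ahead of Nr1h4 with no overlap, and 7 in the AMSC group.

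The genes whose profiles over the 9 libraries were most like those of Cyp7a1, Cyp8b1 and Nr0b2 were found by the root mean square difference of mean-centred log2(FPKM + 1) values. For Cyp7a1 they were Nat8f5 (0.839), Serpina4-ps1 (1.03), Nrep (1.07), Hdhd3 (1.09) and Slc1a2 (1.11), where the spread of the Cyp7a1 profile itself was 2.13. Slc1a2, a glutamate transporter, is one of the 8 pericentral markers, with means of 10.4, 0.439 and 4.35 FPKM in the NC, APAP and AMSC groups. For Cyp8b1 they included Mmd (0.123), Gm13910 (0.148), Nxt2 (0.151) and Isg20 (0.152), beside a spread of 0.257. For Nr0b2 they were Ifit3 (0.248), Marcksl1 (0.291), Cdc42ep2 (0.297), Gbp3 (0.307) and Ifit2 (0.310), beside a spread of 0.789. Ifit3, Ifit2 and Gbp3 are interferon-induced genes, and Ifit3 had means of 5.48, 12.9 and 3.07 FPKM in the NC, APAP and AMSC groups.

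Of 13 further genes of bile acid synthesis, 10 were tested. In the APAP group against the NC group, 1 rose and 1 fell, beside 12.8% and 13.1% of all genes tested, and the median log2 fold change was -0.08. Akr1d1, the 5-beta-reductase of the sterol ring, fell with a log2 fold change of -0.65 (adjusted p = 0.0189), from a mean of 64.1 to 40.5 FPKM, and the call was lost without NC replicate 1 (adjusted p = 0.0816) or APAP replicate 2 (0.0635). A pseudogene of at most 5.18 FPKM overlaps Akr1d1 on the same strand. Cyp39a1, an oxysterol 7-alpha-hydroxylase, rose by 0.63 (adjusted p = 0.0464), from 11.4 to 17.9 FPKM, and the call was lost with TPM scaling (0.35, adjusted p = 0.163) and without any single library other than NC replicate 3 (adjusted p from 0.0560 to 0.159). None passed the limma test between the AMSC and APAP groups, where the median was 0.11, beside 1.64% of all genes tested higher and 2.14% lower. At an unadjusted p under 0.05, 3 passed (2 higher, 1 lower), and 0 passed with voom. The share of all genes at that unadjusted p was not counted, so these 3 are not read as a departure from it. For AMSC against NC, 1 was higher and 2 were lower, beside 14.1% and 11.9% of all genes tested.

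All 17 genes on a list of regulators of these genes were tested, with a median log2 fold change of -0.43 for APAP against NC. In the APAP group 5 rose and 6 fell compared with the NC group, beside 12.8% and 13.1% of all genes tested. Nr1d1, the circadian repressor Rev-erb alpha, had the largest change, from 5.73 ± 0.498 to 82.5 ± 23.0 FPKM (SD, n = 3 each), a log2 fold change of 3.60 (adjusted p = 5.1e-05). The level of Dbp, a clock-controlled transcription factor, fell with a log2 fold change of -2.11, from 28.1 to 5.74 FPKM. Prox1, a co-repressor in hepatocytes, fell (-1.51), from 13.9 to 4.25 FPKM, and the coactivator Ppargc1a rose by 1.39, from 0.545 to 3.14 FPKM. Between the AMSC and APAP groups 2 rose and 0 fell, beside 1.64% and 2.14% of all genes tested. Prox1 rose by 1.27 (adjusted p = 0.0372), a call lost without any single library other than APAP replicate 1 (adjusted p from 0.0629 to 0.10), and Rxra, the partner of FXR in its heterodimer, rose by 0.77 (adjusted p = 0.0481), a call lost without each single library (adjusted p from 0.0547 to 0.159). In the AMSC group compared with the NC group 7 were higher and 3 lower, beside 14.1% and 11.9% of all genes tested. Nr1d1 was among the higher at 70.8 FPKM and Dbp among the lower at 9.38 FPKM. With the hour of harvest not given, the part of time of day in the differences of these clock genes was not tested. Nr1d1, Dbp and Prox1 overlap genes on the other strand, and whether the counting used strand is not given in the sources used here. The highest level of these genes in any library was 12.2 FPKM for Prox1os, 11.6 FPKM for Sphk2 over Dbp and 2.62 FPKM for Thra over Nr1d1. The values of Prox1 and Dbp are therefore less certain than those of Nr1d1.

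Of 10 genes on a list of FXR targets, 7 were tested, with a median log2 fold change of 0.54 for APAP against NC. In the APAP group 3 rose and 0 fell, beside 12.8% and 13.1% of all genes tested. Insig2, a brake on sterol synthesis, rose by 2.16 on the log2 scale (adjusted p = 0.000635), from 22.2 ± 5.82 to 102 ± 19.0 FPKM (SD, n = 3 each). The phospholipid exporter Abcb4 rose by 0.60 (adjusted p = 0.0399) and the bile salt export pump Abcb11 by 0.54 (adjusted p = 0.0470). Both calls were lost with TPM scaling (0.31 and 0.24, adjusted p = 0.249 and 0.313) and without any single library other than APAP replicate 3, with adjusted p from 0.0531 to 0.118 for Abcb4 and from 0.0525 to 0.158 for Abcb11. Between the AMSC and APAP groups only Insig2 passed the test among the 7, at 0.81 higher (adjusted p = 0.0373), a call lost without APAP replicate 2 or 3 or any of the AMSC libraries (adjusted p from 0.0859 to 0.134). Abcb11 was at 77.0 FPKM in the APAP group and 47.1 FPKM in the AMSC group, with no overlap of libraries. Its log2 fold change of -0.70 did not pass the limma test (adjusted p = 0.0655). With voom, 2 of the 7 passed, Abcb11 and Insig2. In the AMSC group compared with the NC group, 2 of the 7 were higher and 0 lower, beside 14.1% and 11.9% of all genes tested.

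Of 14 genes of FGF signalling, 10 were tested, with a median log2 fold change of 0.16 for APAP against NC. In the APAP group 2 rose and 1 fell, beside 12.8% and 13.1% of all genes tested. Fgf21, the hepatic hormone that also uses beta-Klotho, was at 0.189, 0.304 and 0.122 FPKM in the NC group, 19.0, 12.1 and 19.95 FPKM in the APAP group, and 24.4, 11.8 and 30.9 FPKM in the AMSC group. Every treated library lay above every NC library, while the APAP and AMSC libraries overlapped. Fgf21 rose in the APAP group by 3.87 on the log2 scale (adjusted p = 3.2e-05), and for AMSC against APAP the log2 fold change was 0.31 (adjusted p = 0.677). Fgf1 fell in the APAP group (-1.11, adjusted p = 0.00372). Fgfr2 rose in the APAP group by 0.77 (adjusted p = 0.00356) and fell in the AMSC group compared with the APAP group (-0.88, adjusted p = 0.0207), a call lost without APAP replicate 3 (adjusted p = 0.0642), AMSC replicate 2 (0.0768) or AMSC replicate 4 (0.0920). The Fgfr2 gene model spans Oat and other genes, one of them at 594 FPKM in a library, so its values are uncertain. In the AMSC group compared with the NC group, 1 of the 10 was higher and 3 lower, beside 14.1% and 11.9% of all genes tested.

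Of 10 bile acid and sterol transporters, 9 were tested. In the APAP group against the NC group 0 rose and 1 fell, beside 12.8% and 13.1% of all genes tested, with a median log2 fold change of -0.26. Slco1b2, a basolateral uptake carrier, was at 222, 147 and 232 FPKM in the NC group and 120, 60.3 and 96.4 FPKM in the APAP group, and fell with a log2 fold change of -1.14 (adjusted p = 0.0215). The call was lost without NC replicate 1 (adjusted p = 0.0752), NC replicate 3 (0.0669) or APAP replicate 2 (0.0526). None of the 9 passed the limma test between the AMSC and APAP groups, beside 1.64% of all genes tested higher and 2.14% lower. There were 0 at an unadjusted p under 0.05, where the share of all genes was not counted, and 0 with voom. For AMSC against NC, 0 were higher and 4 lower, beside 14.1% and 11.9% of all genes tested.

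**Figure D4:**
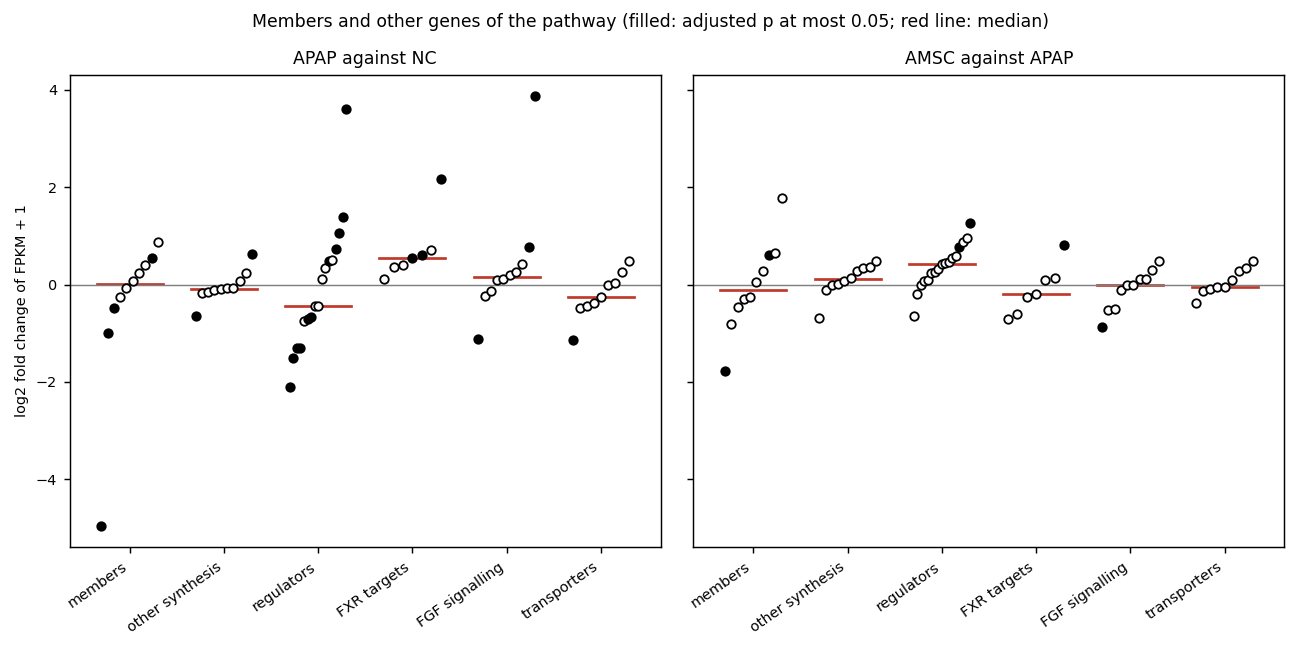
log2 fold changes of FPKM + 1 for each tested gene among the 10 bile acid genes and the 5 pathway lists, for APAP against NC (left) and AMSC against APAP (right), filled where the adjusted p was at most 0.05, with the list median as a red line. In the left panel Cyp7a1 is the lowest point at -4.96 and Fgf21 the highest at 3.87, and in the right panel Cyp7a1 is the highest at 1.78 but open, and Nr0b2 the lowest at -1.77.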

How the data were processed

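Bulk RNA-seq of 9 mouse livers, 3 each for NC, APAP and AMSC, was used, with groups from the sample labels. The authors deposited FPKM values per gene, with gene lengths and coordinates. The submitters' processing notes name the builds GRCm38 and mm10, and the aligner and counting program are not given in the sources used here. The product of FPKM and gene length gave whole reads (within 0.1) for 100% of values per library. FPKM below about 0.1 therefore rest on few reads, and the denominators differed from library totals.

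The test was limma 3.58.1 (R 4.3.3) on log2(FPKM + 1), fitted with lmFit and a trended eBayes to the 2 groups of a comparison, for genes averaging 1 FPKM or more across all 9 libraries, with Benjamini-Hochberg adjustment. Same-numbered APAP and NC libraries deviated together from their group means (r = 0.213, 0.160 and 0.378 across genes), so a fit with the replicate number as a block was compared. The labels give no shared animal or batch, and the title of NC replicate 3 gives it another number and an earlier date. Alternatives were a pseudocount of 0.1, no filter, a mean of at least 5 FPKM, quantile normalization, TPM scaling, all 9 libraries in one fit, no trend, voom on the recovered reads and each library left out in turn.

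The 10 genes, the pathway lists and the marker lists were chosen with earlier results of these data known. Text names all 10 genes, up to 4 genes per pathway list with the largest change past the adjusted p for APAP against NC and AMSC against APAP, and the 5 nearest profiles of Cyp7a1, Cyp8b1 and Nr0b2, of which 1 is not reported here. Abcb11, Nr1d1 and Dbp are also described in a further comparison, which was decided after their values were seen. Promoters came from RefSeq.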

Additional observations from a re-analysis of the deposited data

How the results depend on the processing

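Cyp7a1 (APAP against NC and AMSC against NC) and Nr0b2 (AMSC against APAP) kept their direction and call under every alternative run. Without the filter on low values, the genes past the adjusted p among the 10 fell to 2, 1 and 2 for APAP against NC, AMSC against APAP and AMSC against NC, and the DEGs for AMSC against NC to 1, with more genes tested. The lost calls were Baat and Slc27a5, then Cyp27a1, then Cyp7b1 and Nr0b2. Same-numbered AMSC and APAP libraries did not deviate together (r = -0.10 and -0.29), nor did AMSC and NC libraries (r = -0.20 and -0.31). With the replicate block, which can use only numbers 2 and 3, there were 2 DEGs for AMSC against APAP, as Cyp7a1 passed (2.24, adjusted p = 4.29e-05), and Cyp27a1 was lost against both groups (adjusted p = 0.218 and 0.254). The block changed Nr0b2 for APAP against NC as given above. Leaving out each library gave 1 to 2 DEGs for APAP against NC (1 without APAP replicate 2), 1 for AMSC against APAP and 1 to 2 for AMSC against NC (1 without NC replicate 3, AMSC replicate 2 or AMSC replicate 4), and 2 to 4, 1 to 2 and 2 to 4 genes past the adjusted p. The sign turned for genes that were not called. For APAP against NC these were Cyp8b1 (-0.14 with quantile normalization, -0.23 with TPM scaling, -0.18 to 0.27 leaving out each library, below 0 without NC replicate 2, -0.02, or APAP replicate 1), Cyp27a1 (-0.13 to 0.00999, above 0 without APAP replicate 2), Cyp7b1 (-0.57 to 0.027, above 0 without NC replicate 3) and Fgfr4 (-0.046 with TPM scaling). For AMSC against APAP it was Cyp8b1 (-0.14 to 0.31, below 0 without APAP replicate 2, APAP replicate 3, -0.03, or AMSC replicate 2, -0.05). For AMSC against NC they were Cyp8b1 (-0.045 with quantile normalization, -0.085 with TPM scaling), Slc27a5 (-0.0072 with quantile normalization) and Klb (-0.029 with TPM scaling, and -0.054 to 0.29 leaving out each library, below 0 without NC replicate 3). The cause was not tested. Cyp7a1 rested on 13 to 101 reads in the APAP libraries, and the other 9 genes on 223 or more in each library. Over all genes, DEGs for AMSC against APAP numbered 190, and 21 without the filter, 102 at a mean of at least 5 FPKM, 335 with the block and 296 with voom, and 90, 94, 101 and 105 without AMSC replicate 3, AMSC replicate 4, AMSC replicate 2 and APAP replicate 3. Genes past the adjusted p went from 367 to 53 without the filter, 178 at 5 FPKM, 624 in one fit, and 100, 101, 105 and 120 without the same 4 libraries. For APAP against NC, 766 DEGs became 478 at 5 FPKM, 1190 with TPM scaling and 1197 with voom, and 2514 genes past the adjusted p became 1318 at 5 FPKM and 1353, 1413 and 1655 without NC replicate 2, NC replicate 1 and APAP replicate 2. For AMSC against NC, 583 DEGs became 915 with a pseudocount of 0.1 and 968 with voom, and 2521 genes past the adjusted p became 846 with the block, 1509 at 5 FPKM and 1678 without NC replicate 2.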
